A study of Homo sapiens with 9 samples.

Results

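The 37 genes described here act in DNA damage signalling and repair and were chosen by their symbols, with earlier results of these data known. All 37 were found among the 14839 genes measured. They were followed in MP41 cells, a uveal melanoma (UM) line with a mutation in GNA11, transfected at 66 nM with a synthetic miR-16 or with the control mimic miR-CTR. RNA was collected at 6, 12, 24, and 48 h after transfection with each mimic, and 1 library labelled miR-CTR at 0 h served as the starting point, taken here as cells before transfection. The columns of the table carry time codes rather than hours, and these were read in increasing order. Each of the 9 conditions is a single library of a single line, so no value has a replicate, and no test between the mimics was run. The comparison asks how the mRNAs of repair genes behave once miR-16 is supplied.

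The libraries held 20266001 to 27367162 reads on genes, and the median gene lay between 9.13 and 9.17 in all 9. Values are log2 of normalized reads, so that a difference of 1 is a 2-fold change. The logFC is the miR-16 value minus the miR-CTR value of the same time, and it is called past 0.5 in size. Its standard error (SE) covers the counting of reads and the rounding of the deposited values, and not the spread between cultures. All 7 melanocyte and melanoma markers examined were present at 0 h (among them PMEL at 16.62), while of 10 markers of blood, endothelial, epithelial, and stromal cells only COL1A1 was among the genes measured.

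Cells mend breaks through both DNA strands either by joining the ends directly or by homologous recombination, which copies the sister chromatid and therefore works in S and G2 phase. The Fanconi anaemia pathway unhooks crosslinks between the strands and hands the resulting break to recombination. The kinases ATM and ATR and their partners sense breaks and stalled forks and halt the cell cycle, and many genes of recombination and replication are transcribed mainly in cells that enter S phase. A microRNA recognizes its targets mostly through bases 2 to 8, the seed, shown here in capitals for the mature miR-16 (RefSeq) and for the control sequence of the study, assumed to be that of miR-CTR.

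miR-16: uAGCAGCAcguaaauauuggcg
control: uUGUACUAcacaaaaguacug

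Late after transfection (mean of 24 and 48 h), 11 of the 37 genes were called down and 0 were called up, against 5.73% down and 7.76% up among all genes measured. The 11 were FANCM, CLSPN, XRCC2, BRIP1, FANCA, FANCD2, BLM, EXO1, BRCA2, RAD54L, and FANCI, with late logFC from -0.885 to -0.515. The median late logFC of the 37 genes was -0.285, beside 0.005 for all genes, and 29 were below 0 (49.1% of all genes). The counting interval (95%) lay below 0 for 27 of them (30.2% of all genes), above 0 for 5 (29.6% of all genes), namely ATM, PALB2, RECQL, ATR, and RAD50, and held 0 for ATRIP, PARP1, PMS2, WRN, and RAD51C. In RNA from bulk cultures, fewer cells carrying a transcript and less of it per cell cannot be told apart.

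**Figure D1:**
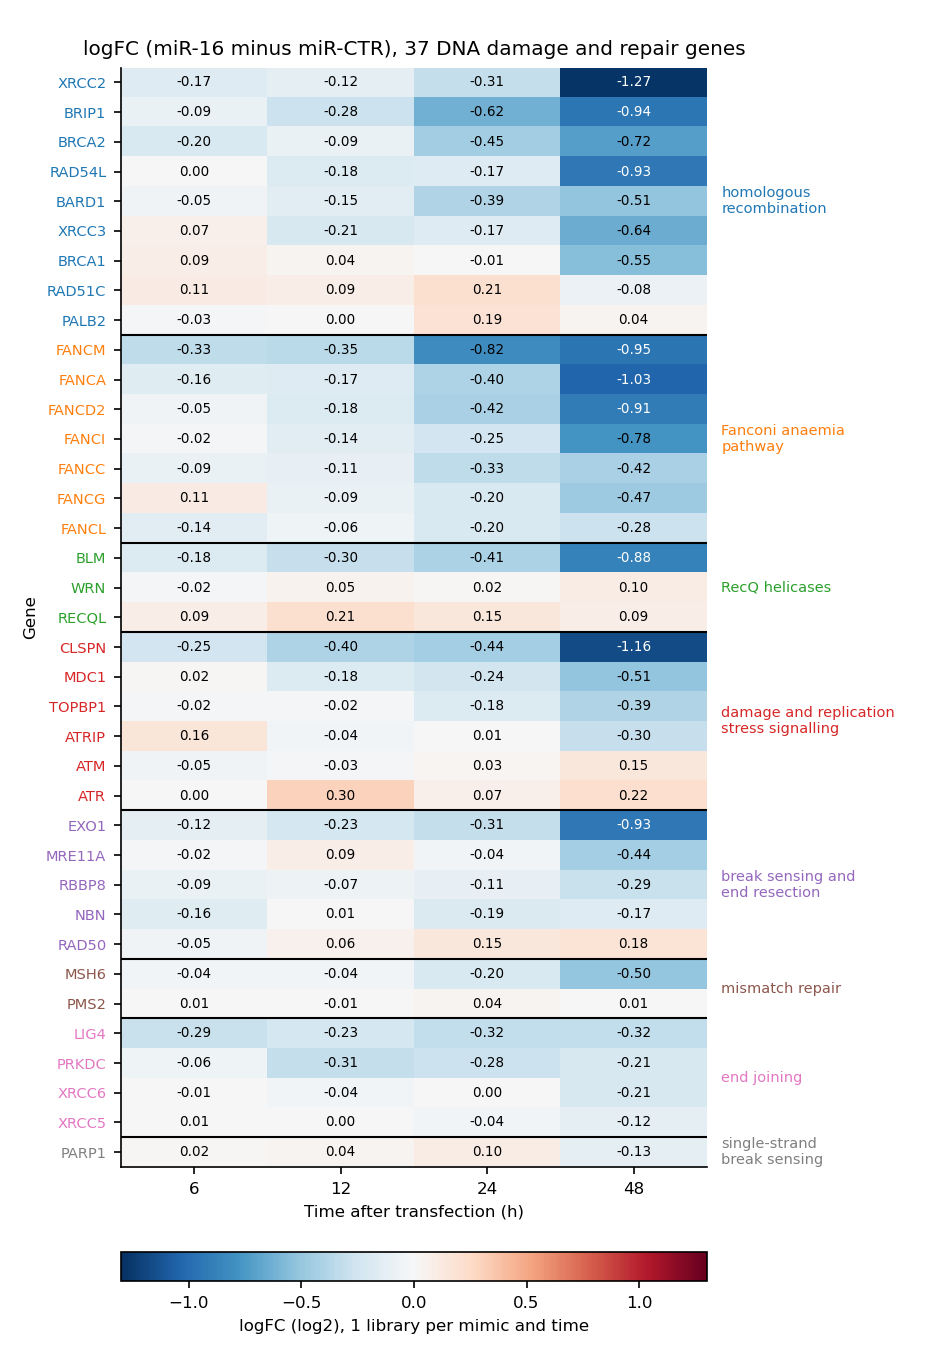
logFC (miR-16 minus miR-CTR, log2, color and number) of the 37 genes (rows, grouped by role) at 6, 12, 24, and 48 h (columns), 1 library per mimic and time. The darkest cells lie in the 48 h column among recombination and Fanconi anaemia genes, BLM, CLSPN, and EXO1, with XRCC2 lowest at -1.27. FANCM is dark at 24 h too (-0.82). The rows of ATM, ATR, RAD50, RECQL, WRN, PMS2, PALB2, and PARP1 stay pale.

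Among the 9 genes of homologous recombination, 4 were called down late (XRCC2, BRIP1, BRCA2, and RAD54L), 0 were called up, and the median late logFC was -0.45. Over all genes, 5.73% were called down late and 7.76% up. XRCC2, which acts in strand exchange (chromosome 7, 152644779 to 152676165), was at 9.28 at 0 h, at 9.26, 8.79, 8.84, and 8.95 with miR-CTR at 6, 12, 24, and 48 h, and at 9.09, 8.67, 8.53, and 7.68 with miR-16. The last of these was the lowest of the 9 libraries, and at 48 h XRCC2 had 41.5% of its miR-CTR level, the smallest share of all 37. Its late logFC was -0.79 (SE 0.08). BRIP1, the helicase that binds BRCA1 (chromosome 17, 61681266 to 61863521), was at 10.17 at 0 h, at 10.61, 10.17, 10.24, and 10.09 with miR-CTR, and at 10.52, 9.89, 9.62, and 9.15 with miR-16. With miR-CTR it was above its starting level at 6 h and near it from 12 h on, whereas with miR-16 it was lower at each time after 6 h, with a late logFC of -0.78 (SE 0.05).

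BRCA2, a mediator of recombination at resected DNA (chromosome 13, 32315474 to 32400266), was at 9.27 at 0 h, at 9.52, 9.10, 9.16, and 9.19 with miR-CTR, and at 9.32, 9.01, 8.71, and 8.47 with miR-16, a late logFC of -0.585 (SE 0.07). RAD54L, a DNA motor of recombination (chromosome 1, 46247688 to 46278473), was at 9.46 at 0 h, at 9.81, 9.46, 9.36, and 9.32 with miR-CTR, and at 9.81, 9.28, 9.19, and 8.39 with miR-16. The mimics gave the same RAD54L value at 6 h, and the late logFC of -0.55 (SE 0.06) came mostly from 48 h (-0.93). Of its exonic length, 25.1% overlaps LRRC41 on the opposite strand, so its reads are uncertain to that extent.

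BARD1, BRCA1, and XRCC3 passed the threshold at 48 h alone. BRCA1, the recombination mediator and ubiquitin ligase, was at 11.54 at 0 h, at 11.47, 11.31, 11.24, and 11.20 with miR-CTR, and at 11.56, 11.35, 11.23, and 10.65 with miR-16, so that the mimics differed by 0.09 at most up to 24 h and by -0.55 at 48 h. Its obligate partner BARD1 was at 9.43 at 0 h, at 9.41, 9.19, 9.23, and 8.87 with miR-CTR, and at 9.36, 9.04, 8.84, and 8.36 with miR-16, and the logFC at 48 h was -0.51. XRCC3, which like XRCC2 acts in strand exchange, was at 10.45 at 0 h, at 10.59, 10.29, 10.10, and 9.92 with miR-CTR, and at 10.66, 10.08, 9.93, and 9.28 with miR-16. Its value is uncertain, since 76.7% of its exonic length overlaps KLC1 on the opposite strand. The remaining members of the group were not called at any time. PALB2, which bridges BRCA1 and BRCA2, had a late logFC of 0.115 (SE 0.06), and RAD51C one of 0.065 (SE 0.05).

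Of the 7 genes grouped here under the Fanconi anaemia pathway, 4 were called down late (5.73% of all genes). All 7 were below 0 late (49.1% of all genes), and the median was -0.515. Each gene was given 1 role, so Fanconi anaemia genes that act in recombination were counted there and not here. Among these, BRCA2, BRIP1, and XRCC2 were called down late, BRCA1 was not called late, and PALB2 and RAD51C were above 0. FANCM, the DNA translocase that anchors the core complex on the crosslink (chromosome 14, 45135940 to 45200890), had the lowest late logFC of the 37 genes, -0.885 (SE 0.06), and also the lowest early one, -0.34 (SE 0.05). It was at 9.93 at 0 h, at 9.87, 9.75, 9.66, and 9.58 with miR-CTR, and at 9.54, 9.40, 8.84, and 8.63 with miR-16. Every miR-16 value of FANCM lay below every miR-CTR value, beginning at 6 h, whereas RAD54L was equal with both mimics at that time. FANCD2 and FANCI form the pair that is ubiquitylated when a crosslink is met. FANCD2 (chromosome 3, 10026414 to 10101930) was at 10.56 at 0 h, at 10.69, 10.51, 10.55, and 10.55 with miR-CTR, and at 10.64, 10.33, 10.13, and 9.64 with miR-16, a late logFC of -0.665 (SE 0.04). FANCI (chromosome 15, 89243949 to 89317261) was at 11.38 at 0 h, at 11.51, 11.44, 11.29, and 11.34 with miR-CTR, and at 11.49, 11.30, 11.04, and 10.56 with miR-16, a late logFC of -0.515 (SE 0.03) just past the threshold. Both were nearly level over 48 h with miR-CTR.

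The core complex, which carries out that ubiquitylation, was less even. FANCA (chromosome 16, 89737549 to 89816657) was at 9.16 at 0 h, at 9.48, 9.07, 9.06, and 9.04 with miR-CTR, and at 9.32, 8.90, 8.66, and 8.01 with miR-16, a late logFC of -0.715 (SE 0.07), with 23.6% of its exonic length shared with ZNF276 on the other strand. The other core genes of this group, FANCC, FANCG, and FANCL (the ligase itself), were not called. Their late logFC was -0.375, -0.335, and -0.24, and 18.7% of the exonic length of FANCL overlaps VRK2 on the opposite strand. Outside this group, the core gene FANCB was called down late (-0.605), while FANCE (-0.26) and FANCF (0.325) were not called.

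Of the 3 RecQ helicases, which unwind recombination intermediates and stalled forks, only BLM was called down late (5.73% of all genes). BLM (chromosome 15, 90717327 to 90816165) was at 9.63 at 0 h, at 9.70, 9.46, 9.49, and 9.28 with miR-CTR, and at 9.52, 9.16, 9.08, and 8.40 with miR-16, a late logFC of -0.645 (SE 0.06). WRN had a late logFC of 0.06 (SE 0.08). RECQL had one of 0.12 (SE 0.04) and was the only member above 0 at all 4 times, although 41.5% of its exonic length overlaps PYROXD1 on the opposite strand.

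**Figure D2:**
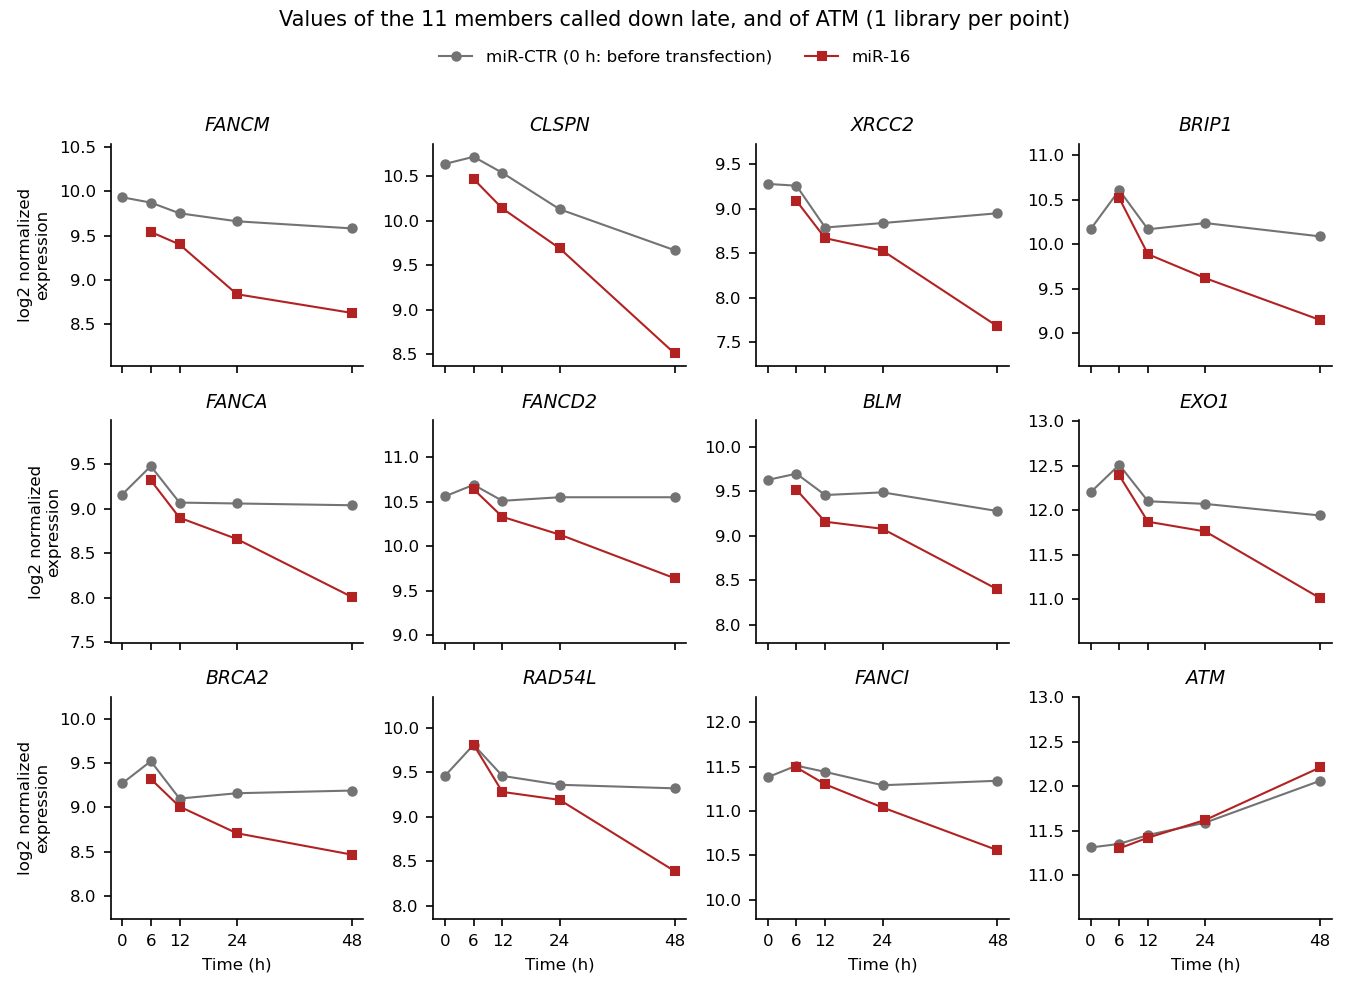
log2 normalized expression (y axis, each panel spanning 2.5 units) against time in hours (x axis) of the 11 genes called down late and of ATM, with miR-CTR in grey circles (0 h included) and miR-16 in red squares, 1 library per point. The lines lie farthest apart at 48 h in each of the 11 panels, whereas ATM climbed to 12.06 with miR-CTR and to 12.21 with miR-16.

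Among 6 genes of damage and replication stress signalling, CLSPN alone was called down late (5.73% of all genes). CLSPN encodes claspin, the adaptor through which ATR activates CHK1 (chromosome 1, 35720218 to 35769967). It was at 10.64 at 0 h, at 10.72, 10.54, 10.13, and 9.67 with miR-CTR, and at 10.47, 10.14, 9.69, and 8.51 with miR-16. CLSPN therefore declined with both mimics and further with miR-16, and it is the one called gene whose 24 h miR-16 value did not lie below the miR-CTR values. Its late logFC was -0.80 (SE 0.06). MDC1, the scaffold that binds phosphorylated H2AX, was at 12.25 at 0 h, at 12.63, 12.32, 12.18, and 12.21 with miR-CTR, and at 12.65, 12.14, 11.94, and 11.70 with miR-16, and passed the threshold at 48 h (-0.51). TOPBP1, an activator of ATR, had a late logFC of -0.285 (SE 0.03), and ATRIP, the partner of ATR, one of -0.145 (SE 0.08), with 27.9% of its exonic length shared with TREX1 on the same strand.

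Neither ATR nor ATM was lower with miR-16 in the late window. ATR, which answers stalled forks, was at 9.94 at 0 h, at 9.87, 9.55, 9.72, and 9.54 with miR-CTR, and at 9.87, 9.85, 9.79, and 9.76 with miR-16, a late logFC of 0.145 (SE 0.05). The pseudogene AC109992.1 on the opposite strand overlaps 16.4% of the exonic length of ATR. ATM, which answers double-strand breaks, was at 11.31 at 0 h, at 11.35, 11.45, 11.59, and 12.06 with miR-CTR, and at 11.30, 11.42, 11.62, and 12.21 with miR-16. In the late window it was the only member past 0.5 upward from 0 h, with either mimic, and the late logFC between them was 0.09 (SE 0.02).

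In break sensing and end resection, 1 of 5 genes was called down late (5.73% of all genes). EXO1, the nuclease that lengthens resected ends (chromosome 1, 241847967 to 241895148), was at 12.20 at 0 h, at 12.51, 12.10, 12.07, and 11.94 with miR-CTR, and at 12.39, 11.87, 11.76, and 11.01 with miR-16, a late logFC of -0.62 (SE 0.03). The 3 subunits of the complex that first binds a broken end were not called and differed in sign, with late logFC of -0.24 for MRE11A, -0.18 for NBN, and 0.165 for RAD50. RAD50 is uncertain, as 79.7% of its exonic length is shared with the annotated gene AC116366.3 on the same strand. RBBP8 (CtIP), which starts resection with that complex, had a late logFC of -0.20 (SE 0.05).

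Neither mismatch repair gene, and none of the 4 end joining genes, was called. MSH6, with 16.2% of its exonic length shared with FBXO11 on the other strand, recognizes mispaired bases. It had a late logFC of -0.35 (SE 0.03) and reached -0.50 at 48 h, at the threshold and not past it. PMS2, whose reads are uncertain because of near-identical pseudogene copies, had one of 0.025 (SE 0.05). PRKDC, the catalytic kinase subunit of end joining, was at 12.31 at 0 h, at 12.77, 12.50, 12.64, and 12.55 with miR-CTR, and at 12.71, 12.19, 12.36, and 12.34 with miR-16, a late logFC of -0.245 (SE 0.02). LIG4, the ligase that seals the ends, had -0.32, and the Ku subunits XRCC6 and XRCC5 had -0.105 and -0.08. PARP1, the sensor of breaks in one strand, was at 13.72 at 0 h, at 13.79, 13.69, 13.54, and 13.46 with miR-CTR, and at 13.81, 13.73, 13.64, and 13.33 with miR-16, and its late logFC of -0.015 (SE 0.01) was within counting error of 0.

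The difference between the mimics was larger at later times. None of the 37 genes was called early (mean of 6 and 12 h, 1.45% of all genes down and 2.04% up), and the median early logFC was -0.075. Taken singly, 6 h had 0 members past the threshold (3.34% of all genes down and 3.38% up), as had 12 h (2.53% down and 3.31% up). At 24 h, 2 genes were past -0.5 (FANCM and BRIP1, 5.26% of all genes), and at 48 h, 15 were (8.96% of all genes), while the median went from -0.19 to -0.42. No member was past 0.5 upward at 24 h (7.24% of all genes) or at 48 h (10.4% of all genes). FANCM and BRIP1 were also the only members past the threshold at both times (2.78% of all genes). The logFC was lower at 48 h than at 24 h for 30 of the 37 genes (48.9% of all genes) and was below 0 at all 4 times for 18 (16.7% of all genes). The 11 called genes were each lower at 48 h than at 24 h, and 10 of them were below 0 at all times, RAD54L being at 0.00 at 6 h. Their 24 and 48 h values are a description only, since the call was made on the mean of these 2 times.

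Set against 0 h, 18 members were past -0.5 late with miR-16 (11.7% of all genes) and 3 with miR-CTR (9.79% of all genes). The 3, CLSPN, ATRIP, and RAD51C, were past -0.5 with both mimics. RAD51C went down by 0.75 with miR-CTR and by 0.685 with miR-16 in this window, a fall of like size with either mimic that the logFC between the mimics (0.065) does not show. ATM was past 0.5 with each (0.515 with miR-CTR and 0.605 with miR-16, where 11.0% and 14.1% of all genes were up). Both series share the 0 h library, so their values are given side by side only. The miR-16 library at 48 h was the lowest of the 9 for 28 members (22.2% of all genes). Both late miR-16 values lay below the other 7 libraries for 10 of the 11 called genes (11.4% of all genes), which is a description only, since the 11 were called for low late miR-16 values. The median change of the 11 called genes from 0 h was 0.08, -0.28, -0.55, and -1.15 at 6, 12, 24, and 48 h with miR-16, and 0.13, -0.10, -0.11, and -0.14 with miR-CTR. The gap between the mimics at 24 and 48 h is likewise a description of genes called for it.

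**Figure D3:**
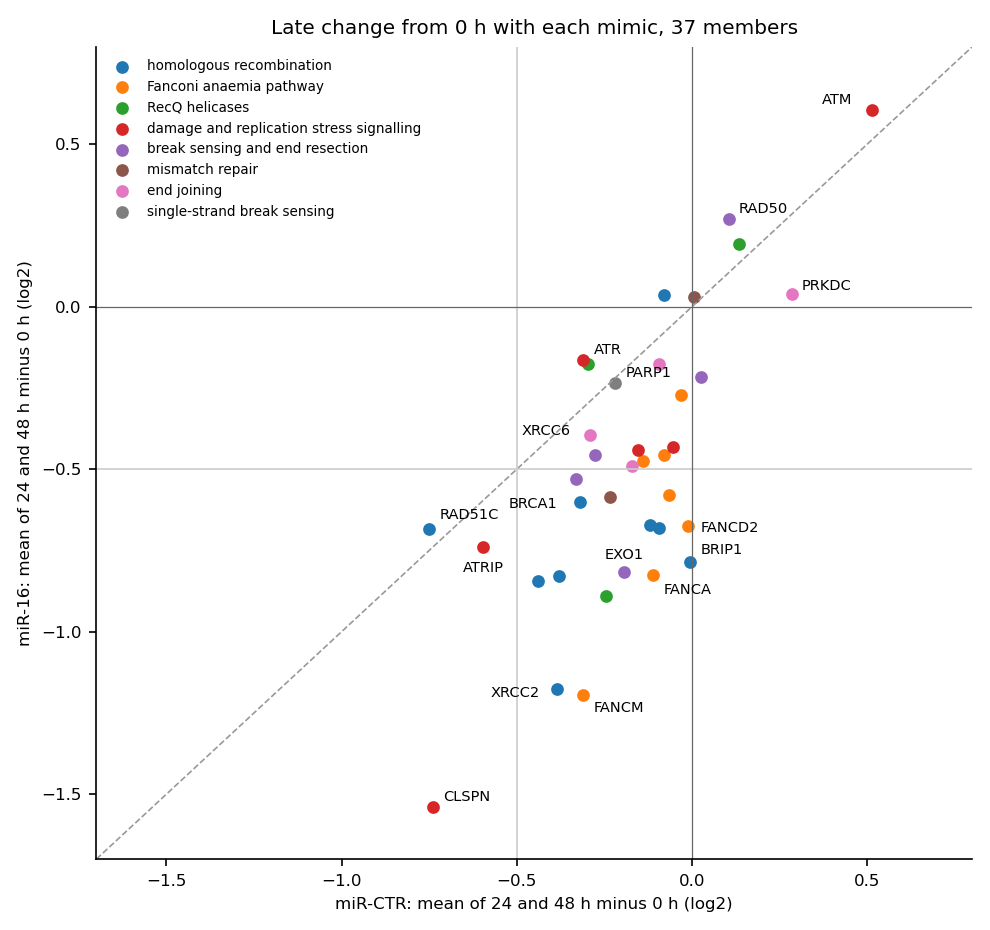
Late change from 0 h (mean of 24 and 48 h minus 0 h, log2) with miR-CTR (x axis) and miR-16 (y axis) for the 37 genes, 1 point each, colored by role, with the dashed line where both are equal and thin lines at -0.5. Most points lie below the dashed line, CLSPN lowest at -0.74 and -1.54, while RAD51C, ATM, PARP1, and ATR lie close to it.

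Levels spanned a wide range in the 0 h library. Per kilobase of exonic length, on the log2 scale, the Ku subunits XRCC6 (12.5) and XRCC5 (11.7) stood highest at 0 h, followed by PARP1 (10.9), EXO1 (10.2), and NBN (9.84). The lowest were FANCC (5.17), BRCA2 (5.65), WRN (5.82), and FANCA (5.87), and the median of the 37 was 7.67. Called genes were found throughout this range, from EXO1, the fourth of 37, to BRCA2, next to last.

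Matches to the miR-16 seed were then looked for. Of 37 members, 4 (10.8%) had an 8mer, 7mer-m8, or 7mer-A1 match in the longest annotated 3'UTR, beside 29.3% of 12015 measured protein-coding genes. The median 3'UTR was 1094 bases long in the members and 1411 in those genes, which was not adjusted for. With any annotated 3'UTR counted, BARD1 was added, for 5 of 37 members (13.5%, beside 31.5% of the measured genes). The matches, in capitals within the DNA of the 3'UTR read 5' to 3' (GRCh38), are shown because they are the only ones in these longest 3'UTRs, at chr16:89738272-89738278 (FANCA, reverse strand), chr3:142450906-142450912 (ATR, reverse), chr2:216206295-216206302 (XRCC5, forward), and chr5:132642565-132642571 and chr5:132644311-132644317 (RAD50, forward).

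FANCA, 7mer-A1: gcggagtccagGCTGCTAgaggtgctcat
ATR, 7mer-A1: ataatgggtgaGCTGCTAttttcaccatt
XRCC5, 8mer: tctctgtgaatTGCTGCTAa
RAD50, first 7mer-m8: tgtttctgattTGCTGCTcttcatcccat
RAD50, second 7mer-m8: tggcttctcatTGCTGCTtctagatcagt

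Of these 4 genes, only FANCA was called down, XRCC5 had a late logFC of -0.08, and ATR and RAD50 were above 0. Conversely, 10 of the 11 called genes had no such match in the 3'UTR, FANCM and XRCC2 having a 6mer only. Of all genes called down late with an annotated 3'UTR, 343 of 652 (52.6%) had a match, and over all genes the median late logFC was -0.165 for the 600 with an 8mer and 0.025 for the 6391 with none. In the coding sequence, 15 of 37 members (40.5%) had a match, beside 39.6% of the measured genes. The median coding sequence was 3045 bases long in the members and 1452 in those genes, which was not adjusted for. The 15 were 3 of the 11 called genes (FANCA, RAD54L, and FANCI) and 12 of the 26 others. Among their matches is an 8mer in the coding sequence of RAD54L, the called gene whose match is the longest, at chr1:46270717-46270724 (forward strand).

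RAD54L, coding 8mer: ggtcgagacgcTGCTGCTAgtgaggcagac

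The remaining 8 called genes, FANCM, CLSPN, XRCC2, BRIP1, FANCD2, BLM, EXO1, and BRCA2, had none in either region. Matches to the control seed were present in the 3'UTR of 5 members (13.5%, beside 14.6% of the measured genes), namely ATR, MRE11A, ATM, RECQL, and BRCA2. A match is a description of the letters only, and its use in these cells was not tested.

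The promoters were searched because many S phase genes share letters bound by E2F factors there. RefSeq promoters (250 bases before to 50 after the start, GRCh38.p14) were matched for 32 of 37 members. TTTGGCG or TTTCCCG on either strand was found in 11 of 32 (34.4%), beside 9.58% of 9600 measured genes with a promoter sequence and 6.11% of all 27305 promoters. The share was 3 of 10 among called genes and 8 of 22 among the others. CCAAT, the letters of NF-Y, was in 16 of 32 (37.0% of the measured genes), and TTTGAA, the CHR element, in 4 of 32 (9.49%). The windows of the 3 called genes with the E2F letters (capitals, on the gene's own strand, as CGGGAAA, the reverse complement of TTTCCCG) lie at chr1:35769965-35769993 (CLSPN, reverse), chr3:10026425-10026453 (FANCD2, forward), and chr7:152676102-152676130 (XRCC2, reverse).

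CLSPN promoter: ctctggctgggCGGGAAAgcaagaacagc
FANCD2 promoter: gtcgggcctggCGGGAAAgtcgaaaacta
XRCC2 promoter: ggcgttggtggCGGGAAAgttgagtctct

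In CLSPN and FANCD2 the letters begin 4 and 1 bases before the annotated start, and in XRCC2 they begin at base 23 after it.

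Repair genes outside the 37 were examined beside them. In a list of 103 further repair genes, 100 were measured. Of these, 12 were called down late (5.73% of all genes) and 0 up (7.76%), and the median was -0.085, beside 0.005 for all genes. Among them were POLQ (-0.685), the polymerase of alternative end joining, H2AFX (-0.67), the histone phosphorylated at breaks, the flap nuclease FEN1 (-0.615), FANCB and DNA2 (-0.605 each), RNF168 (-0.595), and CHEK1 (-0.575), the kinase that claspin serves. RIF1, GEN1, RMI1, and SMC5 were at -0.555 to -0.54. Of the 12, CHEK1, RNF168, RIF1, and GEN1 had a 3'UTR match to the miR-16 seed.

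Genes of the cell cycle were lower in the same libraries. Of 41 measured S phase and replication genes, 18 were called down late (5.73% of all genes) and 0 up (7.76%), with a median of -0.495. Of 26 mitosis genes, 13 were called down and 0 up, beside the same shares, with a median of -0.4925. MCM10 (-0.82) and RRM2 (-0.62) were among the former and CDK1 (-0.73) among the latter. The S phase median relative to 0 h was -1.05 at 48 h with miR-16 and -0.30 with miR-CTR, beside -0.64 and -0.20 for the 37 repair genes. The part of the cell cycle genes' change in that of the repair genes was not tested. Targets of p53, which are induced by DNA damage, had a median of 0.005 over 23 measured genes, of which 3 also stand in the list of other repair genes. Of the 23, 1 was called up (7.76% of all genes) and 1 down (5.73%). FAS, a death receptor, was called up (0.525), although it fell from 0 h with both mimics, by less with miR-16 (-0.34) than with miR-CTR (-0.865). PPM1D, the phosphatase that switches off damage signalling, was called down (-0.53) and has an 8mer match to the miR-16 seed in its 3'UTR.

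**Figure D4:**
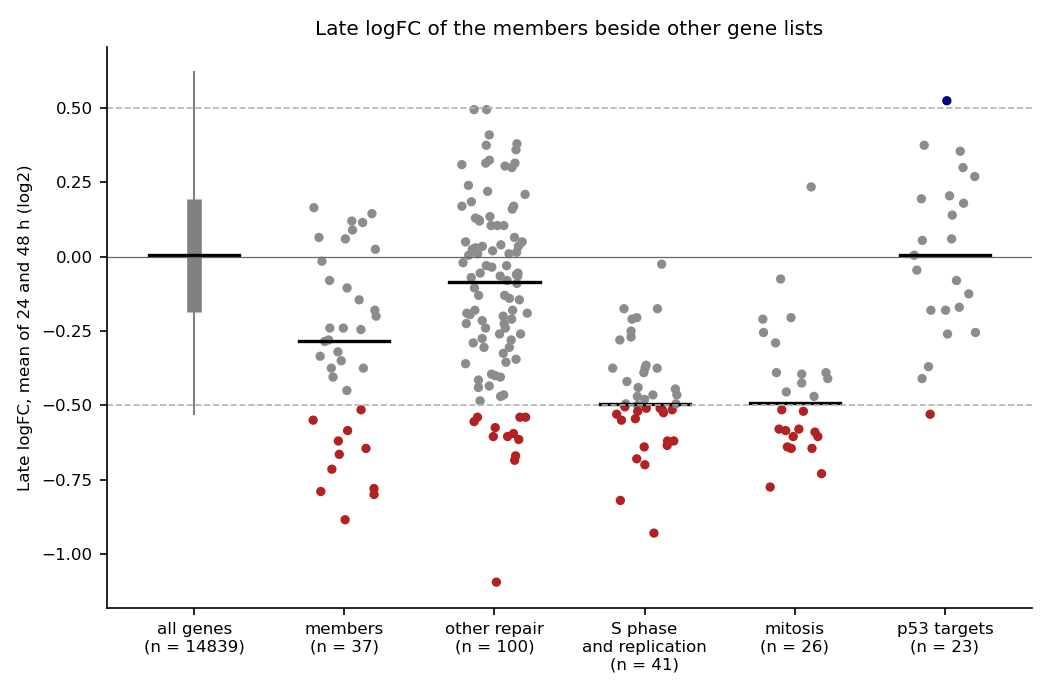
Late logFC (y axis, log2, mean of 24 and 48 h) of the 37 members and of 4 other gene lists, 1 point per gene, red below -0.5 and blue above 0.5 (dashed lines), black bars at medians. All 14839 genes are drawn as an interquartile bar with a line from the 5th to the 95th percentile. The median of the members (-0.285) lies between that of the other repair genes (-0.085) and that of the S phase genes (-0.495).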

How the data were processed

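Polyadenylated RNA of MP41 cells was sequenced in 9 libraries, 1 for each mimic and time, so samples were grouped by mimic and time from the labels. Per the submitters' processing notes, reads were handled with FastQC, STAR 2.4.0a, featureCounts, and Subread 1.5.0-p3 on hg38 (GRCh38). Whether counting used strand is not given in the sources used here. The authors deposited 1 table of 14839 genes that holds log2(reads divided by a size factor of the library + 1), rounded to 2 decimals. Its columns carry time codes, which were read in increasing order as 0, 6, 12, 24, and 48 h.

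The low values of each column fell on steps of 1 read (100% whole within the rounding, for values up to 5). Totals of 20266001 to 27367162 reads per library followed from these steps, with 193 to 395 reads for the member with the fewest reads in each library. No further normalization was applied. At each time the miR-CTR value was subtracted from the miR-16 value to give the logFC. Averages over 6 and 12 h (early) and over 24 and 48 h (late) were then taken. A logFC beyond 0.5 in either direction counted as a call, read beside the share of all genes called. Since there were no replicates, p-values were not calculated. Standard errors and 95% intervals cover counting and rounding only.

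The 37 members and all other gene lists were chosen with earlier results of these data known. Every member is accounted for. Values in every library are given for members called in a window, for members past 0.5 at 24 or 48 h with the same sign at both times, and for BRCA1, BRCA2, FANCD2, ATM, ATR, PARP1, and PRKDC. Of the other lists, FANCE and FANCF are named beside FANCB, and genes called in the late window may be named. A gene called there is not reported here. Genes were joined by symbol to GENCODE 29 (GRCh38), with 13534 of 14839 genes matched, 532 of them by an older name, and 37 of 37 members. Sites were exact 8mer, 7mer-m8, or 7mer-A1 matches, in the transcript with the longest 3'UTR, or for coding matches in that with the longest coding sequence. Promoters (250 bases before to 50 after the start) and the mature miR-16 came from RefSeq tables (GRCh38.p14). The sequence of the control came from the study's list of biotinylated oligos, whose labels for miR-16 and miR-CTR appear swapped, and was assumed to be that of the transfected miR-CTR. Calling and counting errors were run on simulated counts, drawn with the same counting model that gives the standard errors. That run checks the arithmetic only, and the search for sites was not tested. The alternatives tried were another threshold, other normalizations, another reference, single times, a filter on low expression, a requirement on the counting interval, removal of the trend with expression and length, and other definitions of a site. Python 3.11.15, numpy 2.4.6, pandas 2.3.3, and matplotlib 3.10.9 were used.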

Additional observations from a re-analysis of the deposited data

Results flagged for a closer look

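PARP1 had opposite signs at 24 and 48 h, with a logFC of 0.10 at 24 h and -0.13 at 48 h, both with counting intervals clear of 0. BRCA1 had opposite signs in the windows, with an early logFC of 0.065 and a late logFC of -0.28. Both rest on 1 library per mimic and time, and the difference between times was not tested.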

How the results depend on the processing

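Libraries of the mimics were compared within each time, 1 pair a time, and no test over the 4 times was run, so no p-value stands behind any call. Of the 11 genes called down late, 9 remained at 1.5-fold (FANCI and RAD54L lost, 4.04% of all genes down). After quantile normalization 10 remained (FANCI lost, 6.75% down). Subtracting the median of genes of like expression and length also left 10 (FANCI lost, 6.07% down). All 11 remained after centring on the median gene (5.45% down) or without the lowest 25% of expression (4.81% down). The same held where the counting interval had to exclude 0. No called member changed sign in any alternative that gave it a value. The count rests on 48 h: it was 15 at 48 h alone (median -0.42, 8.96% of all genes). It was 2 at 24 h alone (5.26% of all genes) or where both times had to pass (2.78%). With the 0 h library as the reference, 18 members were down and 1 up late (median -0.49), beside 11.7% and 14.1% of all genes. Early, 1 was down (FANCL, also at -0.50 with miR-CTR, where 3.05% of all genes were down with miR-16). Of the 100 other repair genes, 27 were down and 4 up late against 0 h, beside the same 11.7% and 14.1%. At 1.5-fold, 7 of the other repair genes were down (4.04% of all genes). From 0 h with miR-16, 9 members were down and 0 up at 24 h (median -0.33), and the median at 48 h was -0.64. With miR-CTR, CLSPN (-0.51), ATRIP (-0.61), and RAD51C (-0.54) were down at 24 h and 0 were up. At 48 h with miR-CTR, 5 were down and ATM was up (0.75). The shares over all genes are not given for these single times from 0 h. These counts therefore stand without a background and are not read as a result about the members. The members with a seed match in the 3'UTR numbered 1 for an 8mer only (2.70%, beside 4.99% of the measured genes). With 6mers counted they numbered 10 (27.0%, beside 46.8%). Where a count moved, the cause was not tested beyond the change of setting. Each member had 193 reads or more in every library, and the spread between cultures was not measured.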
